A study of Mus musculus with 2 samples.

Results

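The GATA factors are zinc finger transcription factors that bind the base sequence GATA in regulatory DNA, and the FOG proteins are their cofactors. The family was taken by name as Gata1 to Gata6 with Zfpm1 (FOG1) and Zfpm2 (FOG2), which are 8 of the 24354 genes measured. Poly(A) RNA was sequenced from differentiating mouse ESCs in 2 libraries, 1 of control cells (Diff–CONT ESCs) and 1 of inducible Ino80 knockout cells (Diff–iKO ESCs). INO80 is the ATPase of a chromatin remodelling complex. Both ESC lines came from blastocysts and carried the floxed Ino80 2f/2f allele on both chromosomes, although the sample label gives the control genotype as WT, and ROSA26-CreER was present in the knockout line and not in the control line. Both cultures formed embryoid bodies, which attached from day 4 and then received differentiation medium with BMP4 and 0.5 µM 4-OHTM, the agent that switches CreER on, for 7 days. The labels' names are kept below as the CONT-labelled and the iKO-labelled library. One culture per line was sequenced, so every difference given here is between 2 libraries and has no replicate check.

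Background on the family divides it by tissue. GATA1 is the master factor of red cells and megakaryocytes. GATA2 acts in blood stem and progenitor cells and in trophoblast giant cells. GATA3 is best known from T cells, and it also acts in trophoblast and in surface epithelia. GATA4, GATA5 and GATA6 act in heart muscle, gut endoderm and the extraembryonic endoderm of the yolk sac, and GATA6 is the early driver of primitive endoderm. FOG1 is needed with GATA1 in blood, and FOG2 works with GATA4 in the heart, where both recruit corepressors.

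The members resemble each other most in the pair of zinc fingers that bind DNA, so the coding bases of the second finger, from its first to its last cysteine codon, are shown to let the family resemblance be seen. They were read from GENCODE vM21 transcripts on GRCm38, 5′ to 3′ on the coding strand, and the capitals mark bases that differ from those of Gata4.
Gata1: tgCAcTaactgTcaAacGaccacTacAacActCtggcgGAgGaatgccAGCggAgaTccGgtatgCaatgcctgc
Gata2: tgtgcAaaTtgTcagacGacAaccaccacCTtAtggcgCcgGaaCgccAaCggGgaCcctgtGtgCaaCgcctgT
Gata3: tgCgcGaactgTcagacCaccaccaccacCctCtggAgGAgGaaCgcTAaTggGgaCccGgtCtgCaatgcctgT
Gata4: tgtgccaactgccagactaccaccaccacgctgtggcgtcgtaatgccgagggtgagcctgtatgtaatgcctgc
Gata5: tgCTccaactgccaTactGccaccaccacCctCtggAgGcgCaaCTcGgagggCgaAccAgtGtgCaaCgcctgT
The 75 bases lie in coding exons at chrX:7960607-7960681 on the minus strand for Gata1, at chr6:88204610-88204684 on the plus strand for Gata2, and at chr2:9863119-9863193 on the minus strand for Gata3. Those of Gata4 lie at chr14:63203683-63203757 and those of Gata5 at chr2:180328331-180328405, both on the minus strand. Gata1 and Gata3 each differed from Gata4 at 20 of the 75 bases. Gata2 and Gata5 each differed from it at 19 bases. Gata6, whose sequence is not printed, differed from it at 14 bases, the fewest among the 15 pairs of factors. The longest stretch shared without a difference by any pair of the 6 transcripts was 26 nucleotides, in Gata4 and Gata5.

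Some facts of both libraries bear on every value. The deposited unit was FPKM, a fragment count scaled for transcript length and library size, which allows levels to be compared between genes. The steps in the FPKM values gave 27624461 fragments on genes in the CONT-labelled library and 21480621 in the iKO-labelled library. Where a pair of values is given, the CONT-labelled library comes first, and each log2 ratio is of the iKO-labelled over the CONT-labelled library. From the fragments behind each gene, each log2 ratio received an exact Clopper-Pearson 95% interval, an interval for counting error alone that leaves out the spread between cultures. Ino80, the targeted gene, had an FPKM of 8.90 in the CONT-labelled library and 10.3 in the iKO-labelled library, so its value over the whole gene goes against the labels, and FPKM per gene cannot show the loss of single exons. Xist, the RNA that silences an X chromosome, was at 0.0639 and 3.59 FPKM, and 4 Y-linked genes (Uty, Kdm5d, Eif2s3y and Ddx3y) in the iKO-labelled library were at between 16.0% and 46.5% of their level in the CONT-labelled library. The libraries therefore also stand apart in genes of the sex chromosomes, and the part of this in the results below was not tested. Pluripotency genes stood apart as well. Of 8 listed, 7 were higher past the cut-off in the iKO-labelled library. The cut-off used here was FC ≥ 2, with FPKM ≥ 2 in at least 1 library. Of all genes that reached FPKM 2, 6.73% were called higher. The summed level of the 8 listed genes was 446 FPKM in the CONT-labelled library and 2853 FPKM in the iKO-labelled library. Dppa5a alone, at 258 and 2115 FPKM, made up the largest part of both sums. Pou5f1, which encodes the pluripotency factor OCT4, was at 60.8 and 247 FPKM. In bulk RNA, fewer cells of a type and less RNA per cell cannot be told apart.

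Gata4 and Gata6 were lower past the cut-off in the iKO-labelled library, and no member was higher past it. Of the 8 members, 5 reached FPKM 2 and could be called, and 2 of these 5 were called lower, where 8.39% of the 12376 genes that reached FPKM 2 were called lower and 6.73% were called higher. Gata2, Gata3 and Zfpm1 were not called. Gata1, Gata5 and Zfpm2 stayed under the FPKM minimum in both libraries.

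**Figure D1:**
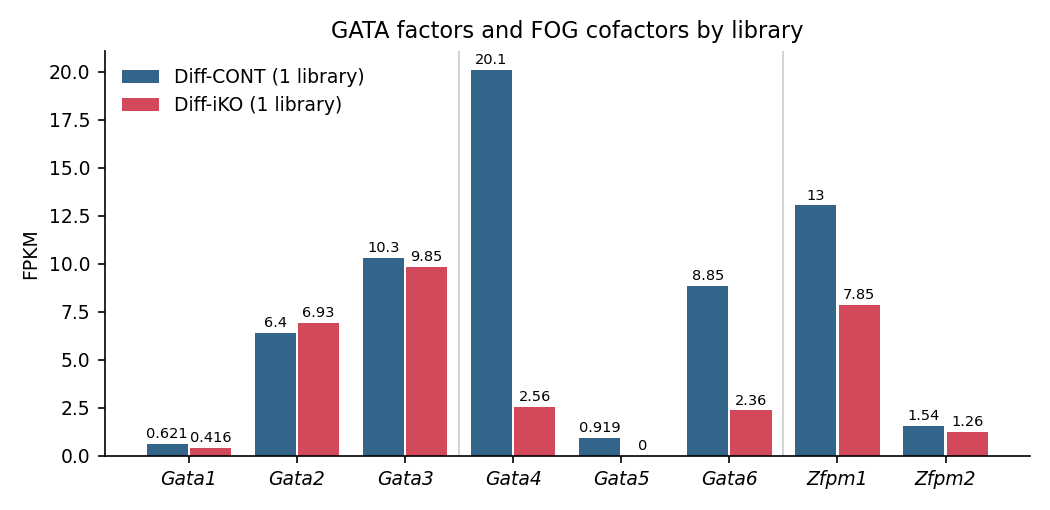
FPKM of the 8 family members in the CONT-labelled library and in the iKO-labelled library (1 library each). Gata4 goes from 20.1 to 2.56 and Gata6 from 8.85 to 2.36, while Gata3 goes from 10.3 to 9.85. Each bar starts at 0 and carries its value.

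Gata4, the heart and endoderm factor, was the most abundant member of the family in the CONT-labelled library at 20.1 FPKM, and was at 2.56 FPKM in the iKO-labelled library. The log2 ratio was -2.97 (interval -3.20 to -2.75, from about 1921 and 183 fragments), a level 7.85-fold lower. Of the 12352 genes ranked by their ratio, 0.607% were lower than Gata4. The gene lies on chromosome 14 from 63198914 to 63271712 (GRCm38). Its rank by level among all genes went from 4409 to 11173, so it lay close to the FPKM minimum in the latter library.

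Gata6, the primitive endoderm driver, was at 8.85 FPKM in the CONT-labelled library and at 2.36 FPKM in the iKO-labelled library, on chromosome 18 from 11052510 to 11085636. The log2 ratio was -1.91 (interval -2.16 to -1.66, from about 809 and 161 fragments), a level 3.75-fold lower, and 2.08% of the ranked genes were lower. Gata6 thus lost less than Gata4. The log2 ratio of Gata4 was lower than that of Gata6 by -1.06 (interval -1.40 to -0.72). The level of Gata4 was 2.27 times that of Gata6 in the CONT-labelled library and 1.09 times in the iKO-labelled library, where the counting intervals of the 2 levels overlapped.

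Gata5, which acts in endocardium and endoderm, was at 0.919 FPKM in the CONT-labelled library, from about 85 fragments, and was listed at 0 in the iKO-labelled library. A floor of 3 fragments is worth 0.0433 FPKM there, and against this floor Gata5 was at least 21.2-fold lower. The counting interval of its log2 ratio, which also takes in the error of the CONT-labelled value, reached up to -4.07. It did not reach the FPKM minimum and therefore does not enter the count of called members. Gata5os, an antisense gene that overlaps Gata5 on chromosome 2, was at 0.0223 FPKM and at 0, about 1 fragment and none. The strand setting of the counting is not given in the sources used here, so reads of overlapping genes cannot be assigned with certainty.

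Among the blood and trophoblast members, the levels of Gata2 and Gata3 lay close together in the libraries. Gata3 was at 10.3 FPKM in the CONT-labelled library and at 9.85 FPKM in the iKO-labelled library, a log2 ratio of -0.06 (interval -0.21 to 0.08). Gata2 was at 6.40 and 6.93 FPKM, a log2 ratio of 0.12 (interval -0.06 to 0.30). Both intervals hold 0, and neither reaches a 1.5-fold difference in either direction. Gata3 lies on chromosome 2 from 9857078 to 9887953 and Gata2 on chromosome 6 from 88193891 to 88207032. A long noncoding RNA gene, 4930412O13Rik, overlaps Gata3 and was at 4.32 and 8.33 FPKM. The same limit on overlapping genes holds for it.

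Gata1, the red cell factor, was low in both libraries. Its level was 0.621 FPKM in the CONT-labelled library and 0.416 FPKM in the iKO-labelled library, from about 32 and 16 fragments. The log2 ratio of -0.58 had an interval from -1.54 to 0.33, so a difference in Gata1 was not detectable at this depth. The gene lies on the X chromosome from 7959260 to 7976663.

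Of the FOG cofactors, Zfpm1 was the better expressed. Zfpm1 was at 13.0 FPKM in the CONT-labelled library and at 7.85 FPKM in the iKO-labelled library, which is 60.2% of the former and under the fold change minimum. Its log2 ratio was -0.73 (interval -0.88 to -0.59), beyond counting error, on chromosome 8 from 122281856 to 122337862. Zfpm2 was at 1.54 and 1.26 FPKM, with a log2 ratio of -0.30 (interval -0.62 to 0.02), on chromosome 15 from 40655042 to 41104592. FOG1, the partner best known from blood, thus had the ratio farther from 0 of the pair, with a difference in log2 ratio of -0.44 (interval -0.79 to -0.09).

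**Figure D2:**
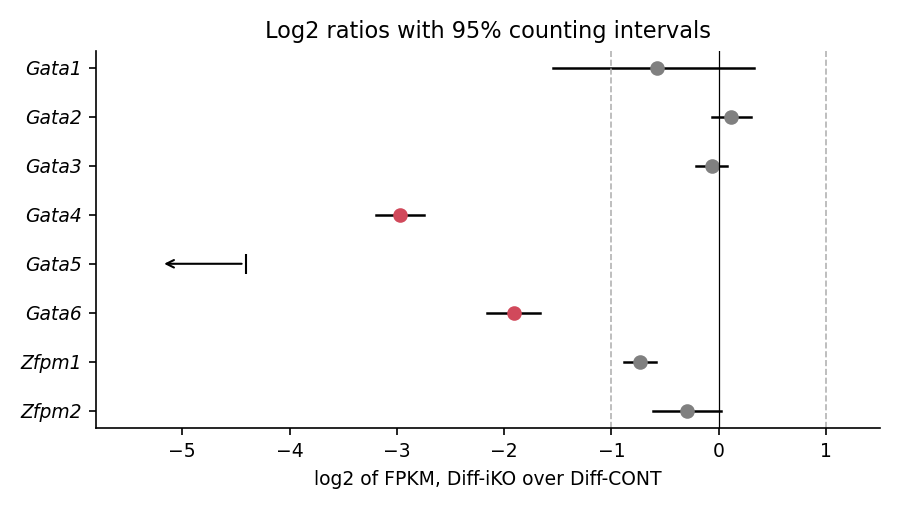
Log2 ratio of FPKM (iKO-labelled over CONT-labelled library) of each family member, with exact 95% intervals for counting error only. Gata4 (-2.97) and Gata6 (-1.91) lie beyond the 2-fold line, Gata2 and Gata3 lie at 0 within their intervals, and Gata5, listed at 0, is drawn as an arrow from its bound. Red points are the called members.

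The order of the members by level differed between the libraries. In the CONT-labelled library it ran Gata4, Zfpm1, Gata3, Gata6, Gata2, Zfpm2, Gata5 and Gata1, and of the neighbours in this order only Gata5 and Gata1 had overlapping counting intervals (0.732 to 1.13 and 0.426 to 0.878 FPKM). In the iKO-labelled library it ran Gata3, Zfpm1, Gata2, Gata4, Gata6, Zfpm2, Gata1 and Gata5. There, Zfpm1 (7.21 to 8.52 FPKM) overlapped Gata2 (6.31 to 7.60 FPKM), and Gata4 overlapped Gata6 (2.01 to 2.75 FPKM). Gata4 led the first order and Gata3 the second.

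The heart and endoderm members were then set against the blood and trophoblast members as groups. Gata4 to Gata6 summed to 29.9 FPKM in the CONT-labelled library and to 4.92 FPKM in the iKO-labelled library. Gata1 to Gata3 summed to 17.3 and 17.2 FPKM. The log2 ratio of the sums was -2.60 for the heart and endoderm members and -0.01 for the blood and trophoblast members, a difference of -2.59 (interval from fragments -2.81 to -2.41), or 6.03-fold. The heart and endoderm members therefore made up 63.3% of the summed FPKM of the 6 GATA factors in the CONT-labelled library and 22.2% in the iKO-labelled library. Counted in fragments, the shares were 64.7% (exact 95% interval 63.3 to 66.2) and 23.1% (21.0 to 25.4).

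Within the sum, Gata4 had the largest share in the CONT-labelled library and Gata3 in the iKO-labelled library. Gata4 made up 42.6% of the summed level in the CONT-labelled library and 11.6% in the iKO-labelled library. Gata3 made up 21.8% and 44.5%. The ratio of Gata3 to Gata2 was 1.61 and 1.42 in the libraries, and the interval of the difference between their log2 ratios (-0.41 to 0.05) held 0. Because the share of one factor depends on the level of the others, the larger share of Gata3 came with a level of Gata3 that lay within counting error.

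**Figure D3:**
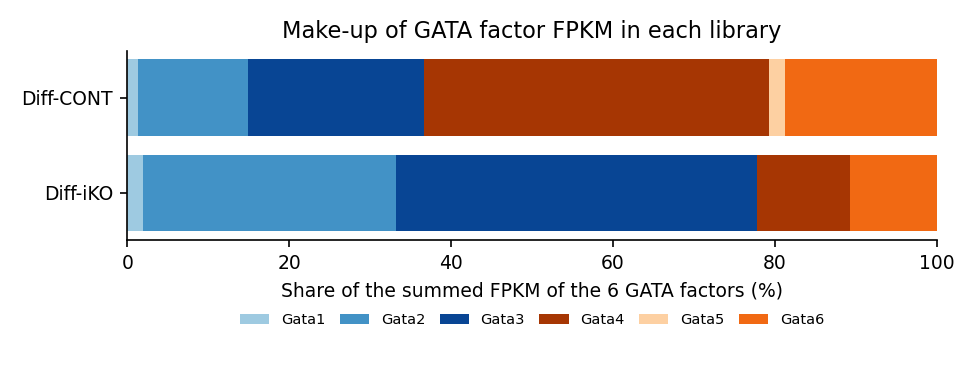
Share of each GATA factor in the summed FPKM of Gata1 to Gata6, in percent, in each of the 2 libraries. Gata4 to Gata6 make up 63.3% of the sum in the CONT-labelled library and 22.2% in the iKO-labelled library.

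Genes that lie near the members were described beside them. These are few per member, and of all 12376 genes that reached FPKM 2, 15.1% were called in either direction, so counts of 0 or a few are near that share and say nothing particular about these stretches. Within 250 kb of Gata4, 7 other genes reached FPKM 2, and none of them was lower past the cut-off. Neil2, a DNA repair gene at 4.76 kb from Gata4, was at 4.13 and 3.46 FPKM, and Fdft1, a gene of cholesterol synthesis at 17.2 kb, was at 25.8 and 21.7 FPKM. Tdh, a threonine dehydrogenase gene known for its high level in undifferentiated ESCs, was the 1 neighbour called higher, at 18.7 and 74.7 FPKM. Mib1, the 1 such neighbour of Gata6, was at 18.2 and 19.4 FPKM. None of the 8 neighbours of Gata5, the 4 of Gata2, the 4 of Gata3 and the 10 of Zfpm1 was called in either direction. Gata1 had 21 such neighbours on the X chromosome, of which 1 (Pim2) was lower and 3 (Wdr45, Pcsk1n and Porcn) were higher past the cut-off.

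**Figure D4:**
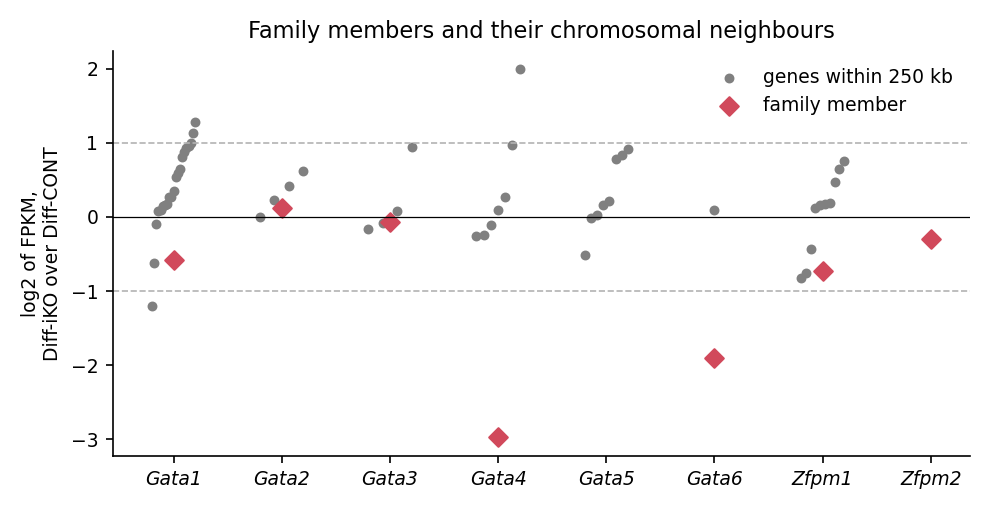
Log2 ratio of FPKM (iKO-labelled over CONT-labelled library) of genes that reached FPKM 2 within 250 kb of each family member (grey points, in order of their ratio), grouped by member along the horizontal axis, with the member itself as a red diamond and 2-fold differences as dashed lines. Gata5, listed at 0, has no diamond. No neighbour of Gata4, Gata5 or Gata6 lies below the 2-fold line, although Gata4 and Gata6 themselves do.

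Genes that work with the GATA factors or mark the cell types they act in were described by lists. For each list the median log2 ratio (with 0.1 added to each FPKM) was taken over those genes whose mean FPKM was 1 or more, and over all 13145 such genes of the table the median was -0.01. Calls were counted over members that reached FPKM 2, and each count is to be read against the 8.39% of all such genes that were called lower and the 6.73% that were called higher. Of the 14 lists outside the family, 5 had a median of -1 or lower. With FPKM ≥ 2 asked for in both libraries, a filter that takes out genes that fell below it, none did. The median was then -0.84 for the cardiac muscle genes, -0.75 for the cardiac partners and -0.88 for the endoderm regulators. It was -0.42 for the extraembryonic endoderm products and -0.62 for the erythroid genes. The last value is that of Slc25a37 alone, as no other erythroid gene passed this filter.

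Most of the called genes of the heart lineages were lower. Of 9 cardiac partners of GATA factors that reached FPKM 2, 6 were lower past the cut-off and none was higher, with a list median of -1.11. Isl1, the factor of second heart field progenitors, was at 7.23 and 0.934 FPKM, and Hand2, a heart ventricle factor, was at 9.07 and 1.41 FPKM. Hand1, which acts in heart and in trophoblast giant cells, was also among the 6 called lower, at 70.8 and 31.3 FPKM. Tbx3 (11.5 and 10.1 FPKM) and Srf (log2 ratio -0.28) were not called. Of 11 cardiac muscle genes, 7 were lower and 1 was higher, with a median of -1.80, which was -0.93 with no filter on FPKM. The summed FPKM of the list went the other way, from 206 to 235, as its most abundant member, the calcium pump gene Atp2a2, was at 121 and 199 FPKM. Atp2a2 was not called, nor was Myl4, at 10.3 and 8.93 FPKM. Myl3, a myosin light chain gene, was at 5.48 and 0.562 FPKM, and Actc1, cardiac actin, was at 11.8 and 1.33 FPKM. The 1 gene called higher was Nppb, a natriuretic peptide gene that GATA4 is known to activate, which was at 1.85 and 8.88 FPKM and so moved opposite to Gata4.

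Most of the endoderm regulators were lower. This list holds 11 transcription factors and Cer1, a secreted antagonist. Of 10 that reached FPKM 2, 8 were lower and none was higher, and without Cer1 it was 7 of 9. The median was -1.98, or -1.84 without Cer1, and it was -1.20 when the minimum mean FPKM was raised to 5. Sox17 was at 5.36 and 0.317 FPKM. Hnf4a, the factor of visceral endoderm and liver, was at 4.33 and 0.0963 FPKM. Foxa2 was at 13.8 and 4.19 FPKM, and Otx2, which is also a neural gene, was at 23.3 and 14.2 FPKM and was not called. Of 17 extraembryonic endoderm products, 9 were lower and 1 was higher, with a median of -1.34. This median was -0.93 when the minimum mean FPKM was raised to 5. The summed FPKM of the list went the other way, from 2095 to 2753, with Sparc, Col4a1 and Col4a2 its most abundant members. The 3 lowest ratios were those of genes of secreted proteins: Apob was at 47.0 and 0.290 FPKM, Afp (alpha-fetoprotein) at 45.9 and 0.422 FPKM, and Apoa1 at 34.8 and 0.444 FPKM. The basement membrane genes of the same list were not called, with Lama1 at 30.5 and 22.8 FPKM, Lamb1 at 195 and 200.2 FPKM, Sparc at 708 and 1244 FPKM, Col4a1 at 327 and 575 FPKM and Col4a2 at 248 and 407 FPKM. Trf, which encodes transferrin, also a secreted carrier, was the 1 member called higher, at 4.18 and 11.2 FPKM.

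Embryonic globin RNA was at or near 0 in the iKO-labelled library. Of 7 erythroid genes that reached FPKM 2, 5 were lower past the cut-off, with a median of -4.51, which is the value of Hba-a1 and stays there when genes at 0 are set to their bound. With no filter on FPKM the median was -1.51, with a pseudocount of 1 it was -2.77, and with the minimum mean FPKM raised to 5 it was -8.27, so its size depends on these settings. Hbb-bh1, an embryonic globin gene, was at 88.2 FPKM in the CONT-labelled library, from about 1120 fragments, and listed at 0 in the iKO-labelled library, at least 279-fold lower against the floor of 3 fragments, with an interval of the log2 ratio that reached up to -7.82. Hba-x, the embryonic alpha-like globin gene, was at 54.9 FPKM and listed at 0, at least 251-fold lower against the floor, with an interval that reached up to -7.67. Hbb-y, another embryonic globin gene, had about 466 fragments and 1 fragment, which gives a log2 ratio of -8.42 (interval -13.75 to -5.96). The adult genes Hba-a1 and Hba-a2 are near-identical, so the 7.41 and 0.230 FPKM of Hba-a1 are uncertain. Epor, the erythropoietin receptor, was at 2.57 and 0.570 FPKM. Slc25a37, a mitochondrial iron carrier gene that other cells also express, was at 11.2 and 7.25 FPKM and was not called. Gata1, the member known for these genes, had a log2 ratio of -0.58 with an interval that held 0.

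Because most of the called erythroid genes were lower, the 250 bases before the start of 4 genes of the list are printed, of which Hba-x, Hbb-y and Epor were called and Alas2 was under the FPKM minimum. Alas2 was at 1.06 FPKM, from about 54 fragments, and listed at 0, at least 13.5-fold lower against the floor, with an interval that reached up to -3.40. The sequences are given 5′ to 3′ on the gene's strand, from the RefSeq table (GRCm38.p6). The capitals mark matches on either strand to a GATA motif, searched as AGATAA and its forms with a final G (AGATAG), with a leading T (TGATAA) or with both changes (TGATAG).
Hba-x: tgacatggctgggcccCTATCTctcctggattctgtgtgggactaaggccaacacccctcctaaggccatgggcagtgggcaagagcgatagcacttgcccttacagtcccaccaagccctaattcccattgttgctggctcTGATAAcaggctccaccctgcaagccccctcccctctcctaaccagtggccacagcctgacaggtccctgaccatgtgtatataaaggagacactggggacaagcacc
Hbb-y: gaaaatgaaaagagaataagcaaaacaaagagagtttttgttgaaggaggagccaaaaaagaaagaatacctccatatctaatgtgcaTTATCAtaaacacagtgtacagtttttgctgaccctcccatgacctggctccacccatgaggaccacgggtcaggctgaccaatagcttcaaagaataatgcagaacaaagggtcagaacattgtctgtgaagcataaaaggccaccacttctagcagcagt
Epor: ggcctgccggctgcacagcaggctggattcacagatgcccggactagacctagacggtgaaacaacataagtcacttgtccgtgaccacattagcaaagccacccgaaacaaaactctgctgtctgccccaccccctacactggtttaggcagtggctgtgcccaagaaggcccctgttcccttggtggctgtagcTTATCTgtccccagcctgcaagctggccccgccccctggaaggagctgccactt
Alas2: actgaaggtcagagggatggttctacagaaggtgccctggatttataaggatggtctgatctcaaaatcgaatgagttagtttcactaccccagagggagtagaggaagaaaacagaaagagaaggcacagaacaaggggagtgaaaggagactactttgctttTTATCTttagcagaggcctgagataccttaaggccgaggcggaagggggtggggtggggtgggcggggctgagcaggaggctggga
They lie at chr11:32276350-32276599 on the plus strand for Hba-x, chr7:103853208-103853457 on the minus strand for Hbb-y, chr9:21963577-21963826 on the minus strand for Epor and chrX:150547167-150547416 on the plus strand for Alas2, the gene of the first enzyme of haem synthesis in red cells. The matches begin 234 and 108 bases upstream of the start in Hba-x, 162 in Hbb-y, 54 in Epor and 86 in Alas2. All 9 erythroid promoters in the RefSeq table (9 genes) held a match within these 250 bases, where 23.2% of 20756 promoters did. In the window of 300 bases that adds 50 after the start, 25.5% of all promoters held a match, as did 9 of 18 cardiac muscle promoters, 4 of 14 promoters of endoderm regulators, 5 of 16 trophoblast promoters, 4 of 9 pluripotency promoters and 2 of 15 promoters of extraembryonic endoderm products. Of the family, 5 genes matched the RefSeq table (Gata1, Gata2, Gata3, Gata5 and Zfpm1) with 6 promoters, of which 1, that of Gata3, held a match. A match is a description of the letters and was not tested for binding.

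Among genes that reached FPKM 2, the other blood lists were mixed. The median was -0.59 for the blood partners and -0.40 for the blood progenitor and megakaryocyte genes. With no filter on FPKM these medians were -0.68 and -0.91, and some stricter filters turned each of them positive. Of 5 blood partners of GATA factors that reached FPKM 2, 1 was lower past the cut-off, a count too small to be told from the 8.39% of all genes. That gene was Lmo2, which bridges GATA factors to TAL1, at 4.15 and 1.40 FPKM. Ldb1, the widely expressed scaffold of the same complex, was at 107 and 130 FPKM. Tal1 itself was at 1.07 and 0.122 FPKM, under the FPKM minimum. Of 4 blood progenitor and megakaryocyte genes, 2 were lower (Cd34 at 6.54 and 1.70 FPKM, Itga2b at 2.89 and 1.25 FPKM) and 1 was higher (Spn, with a log2 ratio of 2.29). Kit, which many other cells also express, was at 20.6 and 26.1 FPKM.

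The trophoblast genes, which mark a cell type where Gata2 and Gata3 act, were higher as a list. Of 13 that reached FPKM 2, 9 were higher and 2 were lower, with a median of 1.19 that was 1.84 when the minimum mean FPKM was raised to 5. The placental lactogen genes Prl3d1 (0.484 and 6.19 FPKM) and Prl3b1 (1.82 and 22.4 FPKM) rose past the cut-off, as did Plac1 (11.6 and 26.5 FPKM) and Krt7 (39.2 and 86.4 FPKM). The genes of the early trophoblast factors Cdx2 (4.00 and 0.705 FPKM) and Eomes (5.25 and 1.48 FPKM) were the 2 called lower, and both are also expressed in mesoderm and endoderm progenitors. Esrrb (7.10 and 42.0 FPKM) and Tfap2c (6.68 and 24.1 FPKM) were called higher and also mark pluripotent or germ cells. Prolactin genes form a family of similar sequences, so single members are uncertain.

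The GATA-type zinc finger genes outside the family and the corepressors are short lists, so counts of 0 among them lie near the 15.1% of all genes that were called in either direction. None of 8 other genes with a GATA-type zinc finger was past the cut-off, with a median of 0.01. Gatad2a and Gatad2b, subunits of the NuRD repressor complex, were at 29.5 and 35.9 FPKM and at 19.3 and 19.1 FPKM. Trps1, a GATA-type repressor, was at 2.54 and 2.75 FPKM. None of 12 corepressors that bind FOG proteins was past the cut-off either, with a median of -0.12, and Chd4, the ATPase of NuRD, was at 130 and 125 FPKM. The largest ratio among the corepressors was that of Mta3, at 37.6 and 68.2 FPKM. Mta1, Mta2 and Mta3 are on both lists, so the counts overlap.

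**Figure D5:**
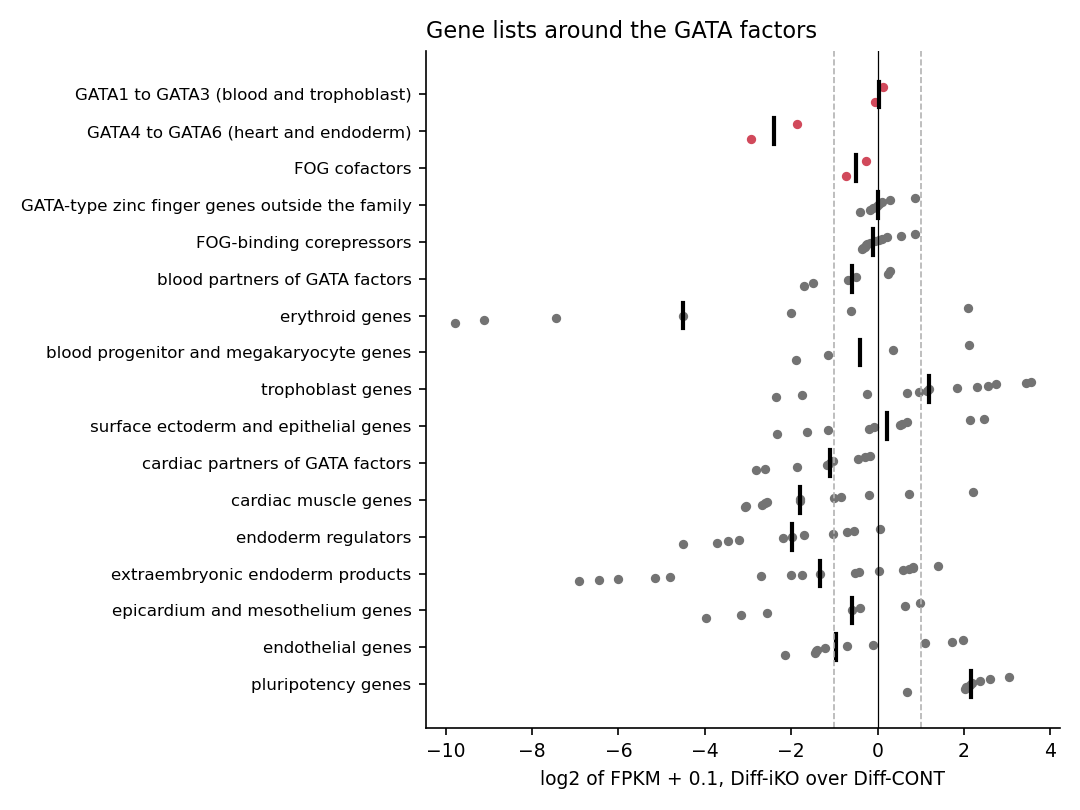
Median log2 ratio of FPKM + 0.1 (iKO-labelled over CONT-labelled library) of the gene lists, as a black bar, with single genes of mean FPKM 1 or more as points (family members in red) and 2-fold differences as dashed lines. Outside the family, the erythroid list (-4.51) and the endoderm regulators (-1.98) lie lowest and the pluripotency list (2.16) highest, while the zinc finger genes outside the family and the corepressors lie near 0.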

How the data were processed

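Poly(A) RNA from 2 cultures was measured, 1 library per condition, in both of which 24354 genes are listed. The authors deposited FPKM values made, per the labels and the paper's methods, with STAR 2.7.9a on mm10 and Cuffnorm of Cufflinks 2.2.1. The gene annotation and the strand setting are not given in the sources used here, and 0 other columns of values were present. The family members and the gene lists were chosen with earlier results of these data known.

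The ratio of the FPKM values was taken without a pseudocount and the cut-off was FC ≥ 2 with FPKM ≥ 2 in at least 1 library. List medians used a pseudocount of 0.1. As each condition had 1 library, no test was run and no p-value is given. Fragments per gene were recovered from the FPKM steps of genes with 1 transcript of at least 1000 nucleotides, where 86.1% and 84.9% of low values lay within 0.2 of a whole multiple, against 40% by chance. For genes with several transcripts the recovered fragments are an approximation. The intervals are at 95% and the floor is 3 fragments per library; both cover counting error only. The 6-letter motifs were searched on both strands.

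Named genes were the members, Ino80, other genes whose symbol starts with Gata or Zfpm, and from each list the 3 with the highest mean FPKM, up to 3 past the cut-off with the largest log2 ratio and up to 2 past it against the list's direction. Genes of the sex chromosomes, neighbours and overlapping genes, Tal1, Alas2 and a few other list members were added to these once their values had been seen. The values of 1 listed gene that the rule named are not reported here. Coordinates of genes, neighbours and promoters are from RefSeq (GRCm38.p6), and those of the zinc finger bases are from GENCODE vM21. The scripts were tested on simulated data. The alternatives were other filters, pseudocounts of 0.1 and 1, FC of 1.5 and 4, and 3 other scalings. The tools were scipy 1.17.1, pandas 2.3.3, matplotlib 3.10.9 and numpy 2.4.6 under Python 3.11.15.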

Additional observations from a re-analysis of the deposited data

How the results depend on the processing

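No paired analysis was possible because each condition had 1 library, and for the same reason no library could be left out. No result changed its direction among the members or the group difference. The count of all genes called higher, 833, became 2794 with no filter, 488 with FPKM ≥ 2 in both libraries, 1846 with FC ≥ 1.5 and 278 with FC ≥ 4. The count of genes called lower, 1038, became 2761 with no filter, 569 with FPKM ≥ 2 in both libraries, 671 with FPKM ≥ 5 in 1 library, 2177 with FC ≥ 1.5 and 237 with FC ≥ 4. Of the family, 2 members were called lower, 3 with no filter or with FC ≥ 1.5, and 1 with FC ≥ 4. With a pseudocount of 1 the group difference was -2.05, the log2 ratio of Gata4 -2.57 and that of Gata6 -1.55. Another scaling moved all log2 ratios by -0.09 to 0.01. The number of lists with a median of -1 or lower, 5, became 0 with FPKM ≥ 2 in both libraries. The medians of the blood progenitor genes (0.34) and of the epicardium and mesothelium genes (0.81) changed sign under that filter, and those of the blood partners (0.23) and again the epicardium and mesothelium genes (0.81) with FPKM ≥ 5 in 1 library. A minimum mean FPKM of 5, added after the data were seen, turned the endothelial median to 0.25, and leaving Cer1 out of the endoderm regulators was also added then. With a pseudocount of 1 the median was -1.51 for the endoderm regulators and -1.41 for the cardiac muscle genes. Depth limits Gata1, Gata5 and Zfpm2 most.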

Other observations

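In these values, too, the CONT-labelled library comes first. Other tissues that express GATA factors gave mixed lists, whose counts are read against the 8.39% of all genes called lower and the 6.73% called higher. Of 9 endothelial genes that reached FPKM 2, 5 were lower and 3 were higher in the iKO-labelled library. Kdr, a receptor of early endothelium and blood progenitors, was at 12.2 and 4.37 FPKM, and Tie1 was at 4.36 and 0.906 FPKM. Pecam1 (16.2 and 53.9 FPKM) and Eng (7.31 and 28.9 FPKM) moved the opposite way, and both are also expressed by undifferentiated ESCs.

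Of 6 epicardium and mesothelium genes, 2 were lower and 1 was higher. Tcf21, an epicardial factor, was at 3.49 and 0.128 FPKM, and Upk3b, a mesothelial gene, was at 2.30 and 0.169 FPKM. Wt1 was at 2.23 and 1.66 FPKM and Msln at 2.75 and 5.52 FPKM.

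Of 8 surface ectoderm and epithelial genes, where GATA3 acts, 2 were higher and 1 was lower, with a list median of 0.23 that was 0.69 with FPKM ≥ 5 in 1 library. The keratin genes Krt14 (0.927 and 5.59 FPKM) and Krt15 (1.41 and 6.54 FPKM) were higher, and Tfap2a (3.80 and 1.66 FPKM) was lower. The rest of the list stayed under the FPKM minimum. There, Trp63 (1.98 and 0.313 FPKM) and Dlx5 (1.80 and 0.509 FPKM) had lower values, and Krt5 (0.416 and 1.02 FPKM) a higher value. Cdh1, the E-cadherin gene, was at 166 and 268 FPKM.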
